A study of Rattus norvegicus with 26 samples.

Results

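The comparison set spinal cords that had received mesenchymal stem cells of human umbilical cord (hUC-MSCs) against spinal cords that had received vehicle, 2 weeks post-transplantation (wpt). It rested on 5 of the 26 RNA sequencing libraries of the series, 3 labelled as treated with hUC-MSCs (+MSC-2w) and 2 labelled as untreated (+PBS-2w). All genes that passed an expression filter were members, 17990 of the 32883 genes counted. The question was which transcripts of the injured cord differed after the graft at this time. All rats were wild type female Sprague-Dawley rats of 250 g, labelled as postnatal day 70. The injury in +MSC-2w and +PBS-2w was a compression of the cord at thoracic level 10 for 1 min by an aneurysm clip with a force of 60 g. At day 7 after injury, hUC-MSCs or phosphate-buffered saline (PBS) were given intrathecally at lumbar level, and per the methods both groups received cyclosporin A, an immunosuppressant, every day. The reference groups were Intact and sub-SCI. Intact (4 libraries) came from intact or sham rats, and sub-SCI (3 libraries) from injured rats at the time of transplantation. Each library was made from poly(A) RNA of a 5 mm segment centered at the lesion. The methods speak of biological replicates, while the labels give replicate numbers but tie no library to an animal. The p-values thus measure the spread between libraries. In edgeR's fit, which gave the p-values and SE below unless DESeq2 is named, this spread was taken within all 8 groups. It is thus not the spread of the 5 libraries alone.

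A compressed cord loses neurons and myelin at the lesion, and resident microglia, blood-borne macrophages and neutrophils enter or multiply there and clear debris. Astrocytes around the lesion become reactive. Fibroblasts from the meninges and from vessel walls lay down collagens, fibronectin and laminins, which form the fibrotic core of the scar. Mesenchymal stem cells are known for secreted factors that act on immune cells and on matrix production, and the cells used here are of human origin, and their reads were removed by the authors before counting.

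The total count lay between 19662677 and 24381819 in +MSC-2w and between 31007696 and 31459506 in +PBS-2w, so that 1 CPM, a count scaled to a library's total, stands for 19.7 to 31.5 reads. CPM values below are scaled by TMM, edgeR's normalization of library composition, and are listed in the order of replicates 1, 2 and 3 of +MSC-2w and 1 and 2 of +PBS-2w. The labelled tissue carried its markers in every library, with 18477, 18395 and 18828 CPM in +MSC-2w and 13058 and 16212 CPM in +PBS-2w of the myelin basic protein gene Mbp. The +PBS-2w libraries differed from each other in most gene groups. The summed CPM of 15 neuron markers was 2017 in +PBS-2w replicate 1 and 3464 in replicate 2, against 4013 to 5492 in +MSC-2w. That of 18 macrophage genes was 49059.7 and 30067, against 20176 to 29441. List medians are therefore also given with libraries left out. A range in square brackets after a median holds its lowest and highest value when each of the 5 libraries was left out in turn, and it need not contain the median itself, since another gene can then be the middle one. In the ranges of the neuronal, complement, cytokine, metalloproteinase and noncollagen scar lists, the value nearest 0 was the one without +PBS-2w replicate 1. In +MSC-2w, replicates 2 and 3 were far more alike than any other pair. The chi-square per degree of freedom between their counts was 5.48, which is above sampling noise, against 44 and 44.9 between replicate 1 and each of them and 39.8 to 153 for the other pairs. They were kept as separate libraries, as labelled, and whether they came from separate animals cannot be told from the labels. Replicate 1 also differed in the genes of Schwann cells, the myelinating cells of peripheral nerve, whose summed CPM was 1652 against 416 in both other libraries.

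Genes of synapses, ion channels and cholesterol synthesis stood higher in +MSC-2w, and genes of the meninges, the collagenous scar, neutrophils and macrophages stood lower. No single gene passed the test. A differentially expressed gene (DEG) was a gene with an adjusted p under 0.01 (edgeR's quasi-likelihood F test, adjusted by Benjamini and Hochberg's method) whose log2 fold change exceeded 1 in either direction. This definition was met by 0 of 17990 genes (0%), and the smallest adjusted p was 0.159. At an unadjusted p under 0.05, 988 genes (5.49%) were higher and 1231 (6.84%) lower in +MSC-2w. Without +PBS-2w replicate 1 these counts were 231 and 449, and without +MSC-2w replicate 1 the higher genes numbered 619. All +MSC-2w libraries lay above both +PBS-2w libraries for 3344 genes (18.6%) and below both for 3305 (18.4%). These shares are the background for every count of members given below. DESeq2 run on the 5 libraries alone, an alternative test, called 80 genes higher (0.489%) and 340 lower (2.08%) of the 16363 genes it gave an adjusted p. All 420 had the same direction in edgeR's fit, where 363 of them had an unadjusted p under 0.05. DESeq2 on all 26 libraries called 3 higher and 22 lower genes. At these group sizes the calls thus depended on how the spread was estimated, and the values of each library are shown for that reason.

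The week 2 difference was opposite to the injury difference for most genes that injury had changed. The injury classes came from sub-SCI against Intact, libraries that the week 2 comparison does not use. Of 3151 genes that were lower in sub-SCI, 2888 were higher in +MSC-2w than in +PBS-2w, with a median log2 fold change of 0.51. In this class 1816 genes (57.6%) had all +MSC-2w libraries above both +PBS-2w libraries and 60 (1.9%) had them below, where the background is 18.6% and 18.4%. Of 2981 genes that were higher in sub-SCI, 2529 were lower in +MSC-2w, with a median of -0.33, and 1312 (44%) lay wholly below against 64 (2.15%) above. The other 11858 genes had a median of -0.01. The sizes rested in part on +PBS-2w replicate 1. Without it the medians were 0.34 and -0.15, and without +PBS-2w replicate 2 they were 0.73 and -0.48. Of the 340 genes that DESeq2 called lower on the 5 libraries, 194 were higher in sub-SCI, 3 were lower, and 143 were in neither class. Over all 17990 genes these classes hold 2981, 3151 and 11858 genes. Genes of neither class were thus a smaller share of the calls than of all genes.

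**Figure D1:**
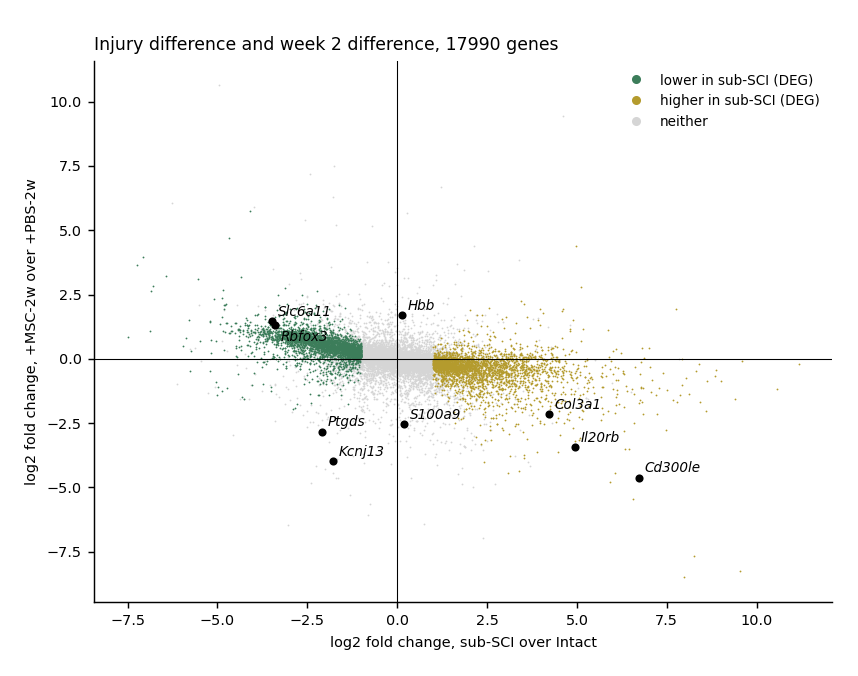
Each point is 1 of 17990 genes. The x axis is the log2 fold change of sub-SCI over Intact and the y axis that of +MSC-2w over +PBS-2w, with the DEGs of the injury comparison colored and named genes in black. Genes lower after injury lie mostly above 0 on the y axis and genes higher after injury mostly below, while S100a9 and Hbb differ at week 2 with little difference between sub-SCI and Intact, and Ptgds and Kcnj13 lie below 0 on both axes.

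Each of the 12 lower genes with the smallest p, named by rule, had an adjusted p of 0.159 in edgeR's test and was called by DESeq2 on the 5 libraries. Ier3 (ENSRNOG00000000827), an immediate early gene of cell survival, stood at 11.7, 10.6 and 10.1 CPM in +MSC-2w and 36.2 and 32.3 CPM in +PBS-2w, a log2 fold change of -1.66 ± 0.29 (SE, unadjusted p = 1.09e-05). Its level was 8.11 CPM in Intact and 44.3 CPM in sub-SCI, so that +MSC-2w lay near Intact and +PBS-2w near sub-SCI. Cd300le, a receptor of myeloid cells, showed one of the widest gaps, at 2.72, 1.6 and 0.976 CPM in +MSC-2w and 66.3 and 21.4 CPM in +PBS-2w (log2 fold change -4.62 ± 0.90). Its 5 libraries did not overlap, although the +PBS-2w libraries differed from each other by more than the whole +MSC-2w range. Cxcr4, the receptor of the chemokine Cxcl12, stood at 22.2, 19.3 and 19.1 CPM in +MSC-2w and 71.6 and 40.8 CPM in +PBS-2w (-1.48 ± 0.31). Ms4a4a, a surface protein of macrophages, stood at 1.21, 2.22 and 1.64 CPM in +MSC-2w and 10.8 and 4.22 CPM in +PBS-2w. Il20rb, a receptor subunit for cytokines of the interleukin 20 group, stood at 0.501, 0.369 and 0.462 CPM in +MSC-2w and 4.74 and 5.00 CPM in +PBS-2w. Bmp7, a ligand of the TGF-beta superfamily, stood at 5.18, 1.72 and 2.21 CPM in +MSC-2w and 29.4 and 24.8 CPM in +PBS-2w (-3.15 ± 0.64). Rarres2, which encodes the chemoattractant chemerin, stood at 15.6, 17.9 and 17 CPM in +MSC-2w and 53.7 and 34.9 CPM in +PBS-2w. For all of these every +MSC-2w library was below both +PBS-2w libraries. The remaining 5 were Ptgds and Kcnj13, described with the meninges, Mustn1 (-1.72 ± 0.36), the alcohol dehydrogenase gene Adh6 (-2.49 ± 0.55) and Ppp1r1a (-1.76 ± 0.39), an inhibitor of protein phosphatase 1. The rule for these names asked for non-overlapping groups, so that their separation is part of the choice.

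The 12 higher genes with the smallest p, named by the same rule, did not pass the test either, and 7 were called by DESeq2 on the 5 libraries. Slc6a11, the GABA transporter GAT-3 of astrocytes, stood at 173, 129.6 and 157 CPM in +MSC-2w and 48.6 and 62.8 CPM in +PBS-2w, a log2 fold change of 1.46 ± 0.36 (edgeR adjusted p = 0.168, DESeq2 adjusted p = 3.07e-10). Intact cords had 204 CPM and sub-SCI cords 18.3 CPM, and the +MSC-2w libraries lay between +PBS-2w and Intact. Rasgrp1, an activator of Ras, stood at 13.4, 10.7 and 11.2 CPM in +MSC-2w and 4.03 and 7.62 CPM in +PBS-2w (1.01 ± 0.25, edgeR adjusted p = 0.168), with 17.7 CPM in Intact. Grip2, an anchor of AMPA receptors, stood at 42.3, 53.4 and 55.3 CPM in +MSC-2w and 11.7 and 22.5 CPM in +PBS-2w (1.55 ± 0.44), where the Intact mean was 50.8 CPM. Acan, the aggrecan core protein of perineuronal nets, stood at 19.2, 15.4 and 15.2 CPM in +MSC-2w and 5.83 and 8.66 CPM in +PBS-2w (1.20 ± 0.34). Ndst4 and Hs6st2, both enzymes that sulfate heparan sulfate chains, had log2 fold changes of 1.45 ± 0.37 and 1.07 ± 0.30, and St8sia1, a sialyltransferase of ganglioside synthesis, had 1.05 ± 0.27. The others were Ank1 (1.09), Cdh23 (1.18), Ksr2 (1.70), Rapgef4 (1.34) and L3mbtl1 (1.05). The adjusted p of the 12 genes lay between 0.168 and 0.223, and all 12 were DEGs lower in sub-SCI than in Intact.

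**Figure D2:**
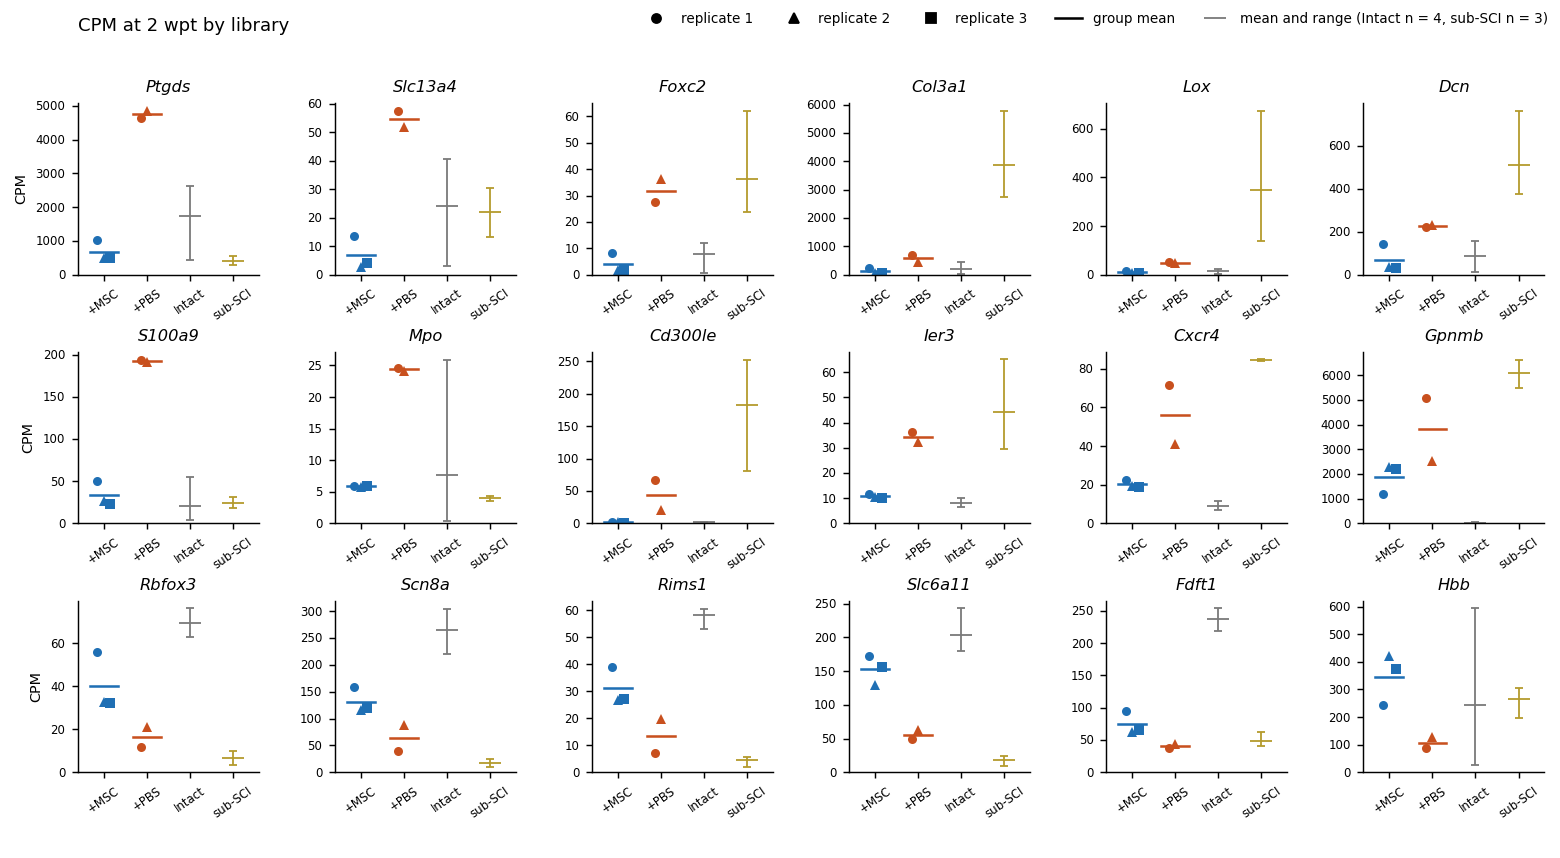
CPM (y axis, from 0) of 18 genes in each library of +MSC-2w (blue) and +PBS-2w (orange), with the marker showing the replicate number and the line the group mean. Gray and ochre bars give the mean and range of Intact and sub-SCI. In the plotted genes the 2 groups do not overlap, and the +PBS-2w libraries are close together for Ptgds, S100a9 and Mpo and far apart for Cd300le, Gpnmb and Rbfox3.

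Of the 46 lists, that of the meninges had the largest median difference. The meninges are the membranes that cover the cord. All 8 markers were lower in +MSC-2w, with no overlap between the groups and an unadjusted p under 0.05 for each, where 6.84% of all genes were lower at that p. The median log2 fold change was -2.79, and it was -2.76 and -2.81 without +PBS-2w replicates 1 and 2. Ptgds (ENSRNOG00000015550), the prostaglandin D2 synthase of the leptomeninges and oligodendrocytes, stood at 1025, 501 and 476 CPM in +MSC-2w and 4644 and 4857 CPM in +PBS-2w (-2.83 ± 0.62, edgeR adjusted p = 0.159, DESeq2 adjusted p = 8.62e-15). The +MSC-2w libraries were low, and +MSC-2w replicate 1 was the highest of them. The transporters of the arachnoid barrier and pia also had their highest +MSC-2w level in replicate 1. Slc13a4, a sulfate transporter, stood at 13.4, 2.79 and 4.06 CPM in +MSC-2w and 57.6 and 51.8 CPM in +PBS-2w (-3.01 ± 0.76). Slc6a13, a GABA and taurine transporter of the leptomeninges, stood at 46.2, 13.3 and 13.7 CPM in +MSC-2w and 144 and 127 CPM in +PBS-2w (-2.47 ± 0.69). The organic ion transporters Slc22a6 and Slc47a1 had log2 fold changes of -2.75 ± 0.80 and -3.16 ± 1.25. Foxc1, a transcription factor of meningeal mesenchyme, stood at 24.7, 7.18 and 7.86 CPM in +MSC-2w and 56.6 and 63.2 CPM in +PBS-2w. Foxc2, its close relative, stood at 8.27, 1.64 and 1.7 CPM in +MSC-2w and 27.5 and 36.2 CPM in +PBS-2w. Aldh1a2, the retinoic acid synthase of meningeal fibroblasts, stood at 23.3, 10 and 10.5 CPM in +MSC-2w and 93.2 and 69.6 CPM in +PBS-2w (-2.48 ± 0.61). The potassium channel gene Kcnj13, which is not on the list, stood at 0.71, 0.123 and 0.206 CPM in +MSC-2w and 5.57 and 5.59 CPM in +PBS-2w (-3.98 ± 0.88).

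The summed CPM of the 8 markers was 1149, 538 and 516 in +MSC-2w and 5057 and 5232 in +PBS-2w. It ranged from 455 to 2835 in Intact and from 511 to 814 in sub-SCI. The other +PBS groups reached from 1262 to 6357 at 1 wpt and from 4793 to 12466 at 4 wpt. The other +MSC groups reached from 2196 to 2759 at 1 wpt and from 3163 to 5015 at 4 wpt. All +MSC-2w libraries thus lay below those of +MSC at the other weeks too. Ptgds alone made up most of this sum in every week 2 library. Without Ptgds the sum was 124, 36.8 and 39.3 CPM in +MSC-2w and 414 and 375 CPM in +PBS-2w. It then ranged from 16.9 to 214 CPM in Intact and from 214 to 407 CPM in sub-SCI, above every +MSC-2w library in sub-SCI. The amount of these transcripts thus differed up to several times between libraries of 1 group, also in uninjured cords. In bulk tissue, fewer cells of a type, less RNA per cell and less attached membrane in the segment cannot be told apart.

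Genes of the fibrotic scar were lower in +MSC-2w as well. All 12 fibrillar and associated collagens tested were lower, 11 of them without overlap (background 18.4%), 7 at an unadjusted p under 0.05 (background 6.84%) and 6 called by DESeq2 on the 5 libraries (background 2.08%). Their median log2 fold change was -1.35, with -1.06 and -1.60 without +PBS-2w replicates 1 and 2. Col3a1, a collagen of young scar, stood at 246, 69.9 and 69.1 CPM in +MSC-2w and 703 and 443 CPM in +PBS-2w (-2.16 ± 0.90, edgeR adjusted p = 0.351). Intact cords averaged 207 CPM (range 9.33 to 458) and sub-SCI cords 3862 CPM, so that both week 2 groups were far below sub-SCI. Col1a1, the main chain of type I collagen, stood at 217, 133 and 159 CPM in +MSC-2w and 626 and 384 CPM in +PBS-2w (-1.57 ± 0.77). The Intact mean of Col1a1 was 196 CPM, below both +PBS-2w libraries and within the range of +MSC-2w. The Intact libraries themselves ranged from 16.2 to 418 CPM, which reaches above +PBS-2w replicate 2. Col8a1, a short-chain collagen of vessels, stood at 10.6, 2.87 and 2.21 CPM in +MSC-2w and 26.3 and 25.3 CPM in +PBS-2w (-2.29 ± 1.03). Col6a1, a beaded filament collagen around cells, stood at 88.8, 68.5 and 72.2 CPM in +MSC-2w and 222 and 164 CPM in +PBS-2w. Col15a1 was the collagen whose groups overlapped, at 3.97, 2.83 and 2.67 CPM in +MSC-2w and 15.1 and 3.72 CPM in +PBS-2w.

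The basement membrane genes were all lower and without overlap, 10 of 10, with a median of -0.99 [-1.23 to -0.78]. Nid2, a linker of laminin and type IV collagen, stood at 30.8, 15.5 and 14.6 CPM in +MSC-2w and 83.1 and 57.9 CPM in +PBS-2w (-1.79 ± 0.57). Col4a1 stood at 89.8, 80.9 and 83.2 CPM in +MSC-2w and 185 and 125 CPM in +PBS-2w (-0.87 ± 0.30). The laminin chain genes Lama2 and Lamb2 had log2 fold changes of -1.28 ± 0.63 and -0.79 ± 0.37. Among 18 noncollagen scar genes, 16 were lower, 15 without overlap and 9 called by DESeq2 on the 5 libraries, and the median was -1.45 [-1.72 to -0.96]. Lox, which cross-links collagen, stood at 16.1, 7.22 and 5.14 CPM in +MSC-2w and 53.3 and 46 CPM in +PBS-2w (-2.38 ± 0.82). Its relative Loxl1 stood at 15.8, 7.59 and 9.61 CPM in +MSC-2w and 67.7 and 33.1 CPM in +PBS-2w (-2.19 ± 0.76). Both were lower in every +MSC-2w library. Dcn, the gene of the proteoglycan decorin, stood at 143, 33.6 and 28.9 CPM in +MSC-2w and 219 and 232 CPM in +PBS-2w, with +MSC-2w replicate 1 between the other +MSC-2w libraries and +PBS-2w. Fn1, the fibronectin gene, stood at 207, 262 and 294 CPM in +MSC-2w and 568 and 561 CPM in +PBS-2w, where +MSC-2w replicate 1 was the lowest. Thbs1, a matricellular activator of TGF-beta, had a log2 fold change of -2.55 ± 1.18, and Fap, a protease of activated fibroblasts, -2.06 ± 0.80. Tenascin C did not share the direction. Tnc stood at 24.6, 38.8 and 37.5 CPM in +MSC-2w and 31.9 and 23.2 CPM in +PBS-2w (0.29 ± 0.58), with overlap, and the log2 fold change of Sparc, a collagen-binding matricellular gene, was -0.16.

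The TGF-beta group, which drives matrix production, held 12 genes of ligands, receptors, binding proteins and targets. Of these 11 were lower and 10 did not overlap, with a median of -0.83 [-0.87 to -0.73]. The ligand Tgfb1 stood at 70.7, 103 and 118 CPM in +MSC-2w and 136 and 125 CPM in +PBS-2w (-0.42 ± 0.23), a smaller difference than that of the latent binding proteins Ltbp1 (-1.78 ± 0.56) and Ltbp2 (-2.03 ± 0.70). The target gene Tgfbi had a log2 fold change of -1.41 ± 0.63, and the ligand Bmp4 -1.17 ± 0.43. Of 11 matrix metalloproteinases and their inhibitors 10 were lower and 4 lay wholly below, with a median of -0.85 [-0.76 to -0.27]. The inhibitor Timp4, picked out after its values were seen, was the 1 higher gene and lay wholly above. Mmp14, a membrane-bound collagenase, stood at 68.3, 58.3 and 62.1 CPM in +MSC-2w and 141 and 127 CPM in +PBS-2w. Timp3, an inhibitor, stood at 109, 95.8 and 96.9 CPM in +MSC-2w and 182 and 213 CPM in +PBS-2w. The meninges markers shared the direction of the medians of all these matrix lists. All 8 were lower, none was at 0, and their summed CPM was 516 to 1149 in +MSC-2w against 5057 to 5232 in +PBS-2w. Within +MSC-2w, replicate 1 had the highest sum of the meninges, collagen, basement membrane and noncollagen scar lists. It had the lowest sum of the TGF-beta list (473, 597 and 620 CPM) and of the metalloproteinase list (767, 924 and 1032 CPM). The part of the meninges in the matrix differences was not tested.

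**Figure D3:**
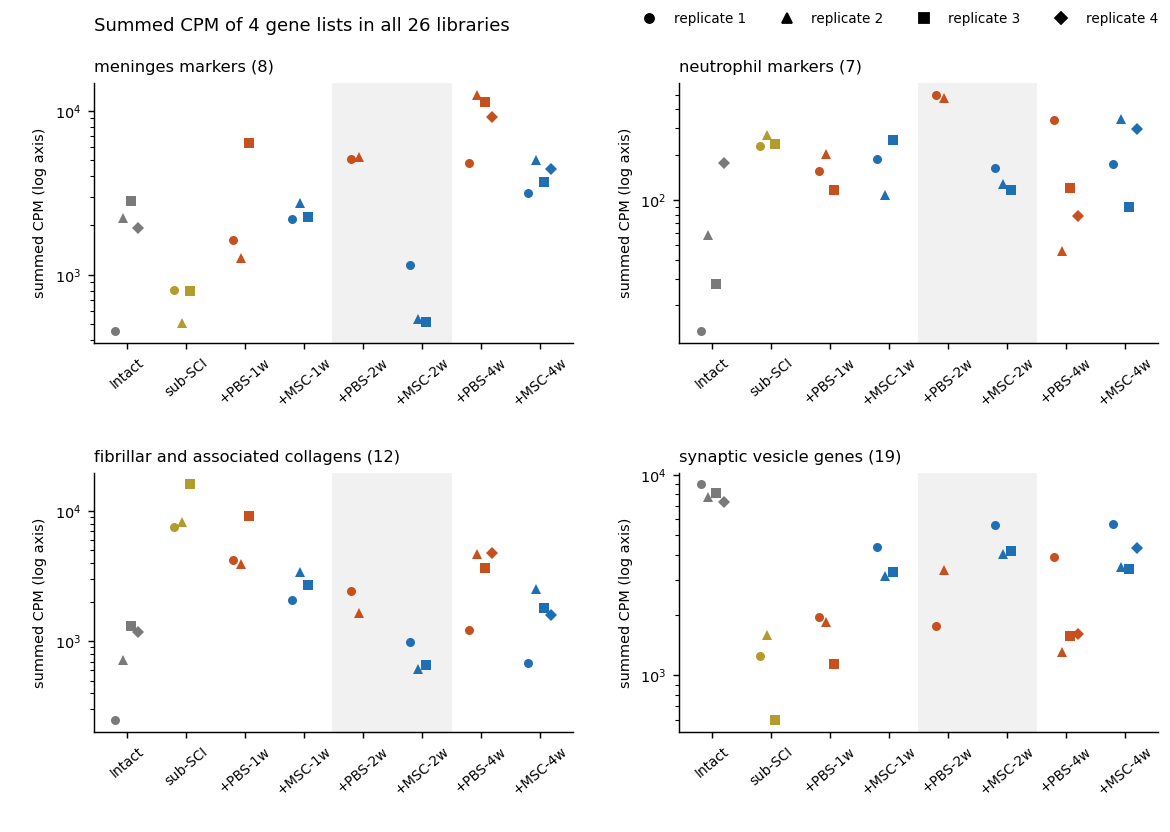
Summed CPM (log axes) of the meninges markers, neutrophil markers, fibrillar and associated collagens and synaptic vesicle genes in each of the 26 libraries, by group, with week 2 shaded and the marker showing the replicate number. In the first 3 lists both +PBS-2w libraries lie above all +MSC-2w libraries and in the last below them, and the neutrophil sum of the +PBS-2w libraries is the highest of the series. Ptgds makes up most of the meninges sum in the week 2 libraries.

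Neutrophil genes were lower in +MSC-2w. Of 7 markers, 6 were lower without overlap and 6 were called by DESeq2 on the 5 libraries, with 3 at an unadjusted p under 0.05 in edgeR. The median log2 fold change of -2.05 ranged from -2.07 to -2.02 when each of the 5 libraries was left out in turn. S100a9, a subunit of calprotectin, stood at 50, 26.8 and 22.7 CPM in +MSC-2w and 194 and 192 CPM in +PBS-2w (-2.54 ± 1.05, edgeR adjusted p = 0.348, DESeq2 adjusted p = 2.34e-12). S100a8, the other subunit, stood at 41.1, 24 and 17.6 CPM in +MSC-2w and 161 and 140.3 CPM in +PBS-2w. Intact and sub-SCI averaged 20.7 and 23.8 CPM of S100a9, so that for this gene +PBS-2w stood apart from both and from +MSC-2w. Mpo, the myeloperoxidase gene of immature granulocytes, stood at 5.97, 5.79 and 5.86 CPM in +MSC-2w and 24.6 and 24.1 CPM in +PBS-2w. The libraries of each group were close together for Mpo, and 1 of the 4 Intact libraries also reached the +PBS-2w level. Elane, the neutrophil elastase gene, stood at 1.59, 1.19 and 0.874 CPM in +MSC-2w and 6.5 and 5.78 CPM in +PBS-2w. Mmp8, the neutrophil collagenase, stood at 9.36, 8.37 and 7.55 CPM in +MSC-2w and 25.3 and 27.3 CPM in +PBS-2w. Its sub-SCI mean of 119 CPM was above both week 2 groups, unlike that of S100a9. Mmp9, a gelatinase of neutrophils and macrophages, stood at 5.43, 3.78 and 3.55 CPM in +MSC-2w and 16.7 and 14.9 CPM in +PBS-2w. The granule protein gene Ngp had a log2 fold change of -1.29 ± 0.97. Csf3r, the receptor for granulocyte colony-stimulating factor and also a gene of microglia, overlapped between the groups at 32.5, 47.1 and 47 CPM in +MSC-2w and 46.1 and 37 CPM in +PBS-2w. The summed CPM of the list was 472 and 497 in +PBS-2w and 117 to 164 in +MSC-2w. It reached up to 272 in sub-SCI, 345 in +MSC-4w and 339 in +PBS-4w.

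Erythrocyte genes went the other way. All 4 genes tested were higher in +MSC-2w without overlap, 3 were called by DESeq2 on the 5 libraries (background 0.489%), and none had an unadjusted p under 0.05 in edgeR. Hbb, a beta globin gene, stood at 243, 420.5 and 373 CPM in +MSC-2w and 87.7 and 126 CPM in +PBS-2w (1.69 ± 1.10). Alas2, the erythroid enzyme of heme synthesis, stood at 11.2, 13.9 and 14.8 CPM in +MSC-2w and 3.36 and 6.91 CPM in +PBS-2w (1.37 ± 1.04). Hba-a2 had 1.37 ± 1.05 and the band 3 anion exchanger gene Slc4a1 0.67 ± 1.08. In Intact the summed CPM of these genes ranged from 108 to 1792, which spans both week 2 groups. Markers of red blood cells and of neutrophils thus stood on opposite sides in the week 2 comparison.

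Genes of phagocytes were lower in +MSC-2w, by an amount that depended on +PBS-2w replicate 1. All 18 genes of phagocytic macrophages and microglia were lower and 8 did not overlap (background 18.4%). The median log2 fold change was -0.55, and it was -0.09 without +PBS-2w replicate 1 and -0.88 without replicate 2. Gpnmb, a glycoprotein of lipid-laden phagocytes, stood at 1193, 2282 and 2188 CPM in +MSC-2w and 5067 and 2538 CPM in +PBS-2w (-1.01 ± 0.38). Its +PBS-2w replicate 2 was only slightly above +MSC-2w replicate 2. Mrc1, the mannose receptor, stood at 18, 19.8 and 17.4 CPM in +MSC-2w and 77.4 and 38.4 CPM in +PBS-2w (-1.65 ± 0.47). Msr1, a scavenger receptor gene, stood at 6.6, 26.8 and 20.3 CPM in +MSC-2w and 46.7 and 29.9 CPM in +PBS-2w, with +MSC-2w replicate 1 far below the others. Among genes of lipid handling and lysosomes, Apoe had -0.66 ± 0.26, the cholesterol exporter gene Abca1 -0.90 ± 0.34 and the protease gene Ctsl -0.62 ± 0.16, each without overlap. General genes of activated phagocytes overlapped. Cd68, a lysosomal glycoprotein, stood at 104, 240.0 and 276 CPM in +MSC-2w and 389 and 219 CPM in +PBS-2w. Lgals3, which encodes galectin 3, stood at 329, 823 and 767 CPM in +MSC-2w and 824 and 471 CPM in +PBS-2w. In both, +MSC-2w replicate 1 was the lowest library and the other +MSC-2w libraries lay above +PBS-2w replicate 2. Complement genes had a median of -0.63 [-0.80 to -0.32], with 11 of 12 lower and 7 without overlap. The receptor gene C5ar1 stood at 8.65, 6.53 and 6.73 CPM in +MSC-2w and 22.7 and 14.4 CPM in +PBS-2w (-1.34 ± 0.32). C1qc, a chain of the initiating component, stood at 239, 374 and 373 CPM in +MSC-2w and 659 and 434 CPM in +PBS-2w. C3, the central component, was the exception with a log2 fold change of 0.43 ± 0.65, with overlap.

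Genes of resting microglia stood near 0. The homeostatic list had a median of 0.07 [-0.05 to 0.20], with 7 of 10 genes higher. P2ry12, a purinergic receptor of microglia, stood at 53.1, 56.7 and 51.9 CPM in +MSC-2w and 44.9 and 43.4 CPM in +PBS-2w. Tmem119, a microglial membrane protein, stood at 62, 63.9 and 71.4 CPM in +MSC-2w and 58 and 57.1 CPM in +PBS-2w. Both were slightly higher in every +MSC-2w library. Olfml3, a secreted glycoprotein, was the 1 gene of this list wholly below, at 22.7, 18.1 and 16.5 CPM in +MSC-2w and 69.5 and 43.5 CPM in +PBS-2w (-1.56 ± 0.52). Of 16 cytokine, chemokine and receptor genes 12 were lower and 9 did not overlap (median -0.74 [-0.83 to -0.35]). Ccl2, a monocyte attractant, stood at 2.88, 3.08 and 2.62 CPM in +MSC-2w and 6.18 and 4.41 CPM in +PBS-2w. Ccl4, an attractant of several leukocytes, stood at 1.96, 3.24 and 3.55 CPM in +MSC-2w and 7.36 and 4.97 CPM in +PBS-2w. Cxcl1, a neutrophil attractant, stood at 1.75, 0.41 and 0.462 CPM in +MSC-2w and 3.43 and 1.81 CPM in +PBS-2w, so that all 3 were under 10 CPM. The 12 interferon-stimulated genes all overlapped, with a median of -0.08 [-0.26 to 0.20]. Class II major histocompatibility genes overlapped as well and turned direction with +PBS-2w replicate 1, from a median of -0.73 with it to 0.98 without it. Cd74, their invariant chain, stood at 127, 95.3 and 105 CPM in +MSC-2w and 305 and 89.9 CPM in +PBS-2w. The RT1-B genes, whose family has close paralogs that could share reads, split within +MSC-2w. RT1-Ba stood at 2.3, 17.2 and 16.4 CPM in +MSC-2w and 3.46 and 2.06 CPM in +PBS-2w, and RT1-Bb at 1.46, 16.5 and 19.7 CPM in +MSC-2w and 5.41 and 2.34 CPM in +PBS-2w. In both, +MSC-2w replicates 2 and 3 were the highest libraries.

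Most neuronal genes were higher in +MSC-2w. All 15 neuron markers were higher and 13 did not overlap (background 18.6%). The median log2 fold change was 0.68, 0.37 without +PBS-2w replicate 1 and 1.09 without replicate 2. Rbfox3, which encodes the neuronal nuclear antigen NeuN, stood at 55.9, 32.6 and 32.2 CPM in +MSC-2w and 11.6 and 20.9 CPM in +PBS-2w (1.31 ± 0.43, edgeR adjusted p = 0.271), with 69.4 CPM in Intact and 6.59 CPM in sub-SCI. Map2, the microtubule protein of dendrites, stood at 810.0, 760.2 and 689 CPM in +MSC-2w and 363 and 579 CPM in +PBS-2w (0.68 ± 0.29). Snap25, a gene of synaptic vesicle fusion, stood at 902, 514 and 522 CPM in +MSC-2w and 200.0 and 487 CPM in +PBS-2w (0.91 ± 0.64). In Snap25, +PBS-2w replicate 2 nearly reached the lower +MSC-2w libraries. The 10 neurofilament and cytoskeleton genes were all higher without overlap (median 0.83 [0.43 to 1.30]). Nefl, the light neurofilament chain, stood at 2757, 1728 and 1836 CPM in +MSC-2w and 719 and 1517 CPM in +PBS-2w. Ina, the internexin alpha gene, stood at 300.1, 185 and 194 CPM in +MSC-2w and 67.5 and 149 CPM in +PBS-2w. In both, +MSC-2w replicate 1 was the highest library and +PBS-2w replicate 1 the lowest. The log2 fold change of Map1b, a microtubule gene of axons, was 0.75 ± 0.26. Gap43, the growth cone gene, stood at 156, 151 and 152 CPM in +MSC-2w and 129 and 135 CPM in +PBS-2w, a narrow gap.

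Genes of inhibitory transmission, which uses GABA and glycine in the cord, were among the neuronal genes that were higher. Of 20 GABA receptor subunits, 19 were higher and 14 lay wholly above, with a median of 0.55 [0.40 to 0.93]. The 1 lower subunit, Gabrr2, lay wholly below and was picked out after its values were seen. The metabotropic GABA-B receptor genes were both higher at an unadjusted p under 0.05. Gabbr1 stood at 808, 649.9 and 656 CPM in +MSC-2w and 484 and 479 CPM in +PBS-2w (0.55 ± 0.21, unadjusted p = 0.0176). Gabbr2 stood at 92.4, 57.9 and 61 CPM in +MSC-2w and 21.7 and 46.8 CPM in +PBS-2w (1.04 ± 0.33, unadjusted p = 0.00471). Gabrd, an extrasynaptic subunit, was near the limit of detection in +PBS-2w, at 1.13, 0.698 and 0.771 CPM in +MSC-2w and 0.032 and 0.281 CPM in +PBS-2w. Glycine receptors mediate much of the inhibition of motor neurons. Glra1, the adult alpha subunit, stood at 75.6, 59.9 and 58.7 CPM in +MSC-2w and 19.6 and 43 CPM in +PBS-2w. Glra2, the fetal alpha subunit, stood at 3.3, 2.5 and 3.29 CPM in +MSC-2w and 0.992 and 1.41 CPM in +PBS-2w. Pax2, a transcription factor of inhibitory interneurons, stood at 8.15, 5.95 and 5.19 CPM in +MSC-2w and 1.76 and 3.22 CPM in +PBS-2w (1.37 ± 0.43). Slc32a1, the vesicular transporter of GABA and glycine, stood at 151, 84.6 and 102 CPM in +MSC-2w and 28.9 and 66.9 CPM in +PBS-2w. Slc6a5, a glycine transporter of neurons, stood at 263, 194 and 199.6 CPM in +MSC-2w and 57.9 and 185 CPM in +PBS-2w. Its +PBS-2w replicate 2 was close to the lower +MSC-2w libraries. Gad1, a GABA-synthesizing enzyme, overlapped at 95, 59.1 and 64.5 CPM in +MSC-2w and 29.9 and 65.8 CPM in +PBS-2w. Slc12a5, the chloride exporter KCC2, stood at 318, 175 and 205 CPM in +MSC-2w and 77.6 and 140.3 CPM in +PBS-2w (1.09 ± 0.46).

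Most genes of ion channels and transmitter release were higher. Of 25 voltage-gated sodium and calcium channel genes 24 were higher, 21 did not overlap and 14 had an unadjusted p under 0.05 (background 5.49%). Scn8a, the sodium channel of nodes of Ranvier, stood at 158, 117 and 119 CPM in +MSC-2w and 39.6 and 88.1 CPM in +PBS-2w (1.04 ± 0.40). Scn1a, a sodium channel of central neurons, stood at 158, 119 and 106 CPM in +MSC-2w and 29 and 87 CPM in +PBS-2w. The T-type calcium channel genes Cacna1g and Cacna1h had log2 fold changes of 0.67 ± 0.21 and 0.72 ± 0.20, with unadjusted p of 0.00411 and 0.00181. All 12 voltage-gated potassium channel genes were higher, 11 without overlap. Kcna2, of the juxtaparanode, stood at 473, 455 and 413 CPM in +MSC-2w and 206 and 319 CPM in +PBS-2w (0.77 ± 0.24). All 19 synaptic vesicle genes were higher, 18 without overlap, with a median of 0.85 [0.48 to 1.37]. The active zone gene Rims1 stood at 39.2, 26.8 and 27.2 CPM in +MSC-2w and 7.17 and 19.6 CPM in +PBS-2w (1.22 ± 0.41). Syt2, the calcium sensor gene, stood at 232, 153 and 155 CPM in +MSC-2w and 50.6 and 111 CPM in +PBS-2w. Cplx2, a complexin that regulates release, stood at 62.4, 50.7 and 55.2 CPM in +MSC-2w and 28.3 and 42.3 CPM in +PBS-2w. In all 3, +PBS-2w replicate 1 was the lowest library. Glutamate receptor genes had 15 of 16 higher and 10 without overlap (median 0.58 [0.43 to 0.70]). The NMDA receptor subunit gene Grin2d stood at 34.6, 26.6 and 33.5 CPM in +MSC-2w and 15.3 and 19.4 CPM in +PBS-2w (0.86 ± 0.22). The obligate subunit gene Grin1 stood at 205, 131 and 147 CPM in +MSC-2w and 56.2 and 112 CPM in +PBS-2w. Of 8 motor neuron and cholinergic genes, 4 did not overlap. Chat, the acetylcholine synthase, stood at 39.3, 30.6 and 34.5 CPM in +MSC-2w and 21.6 and 29.7 CPM in +PBS-2w (0.44 ± 0.47). Slc17a7, a vesicular glutamate transporter of brain and sensory afferents, was lower at 0.543, 0.575 and 0.565 CPM in +MSC-2w and 0.704 and 2.28 CPM in +PBS-2w. Tac3, the neurokinin B gene, was higher at 10, 6.98 and 6.89 CPM in +MSC-2w and 2.72 and 3.37 CPM in +PBS-2w. Its list of 12 dorsal horn and sensory neuropeptide genes had 10 higher but only 3 (25%, background 18.6%) wholly above. The list median of 0.45 was 0.09 without +MSC-2w replicate 1. With +MSC-2w replicates 2 and 3 set against +PBS-2w replicate 2 it was -0.16, and 5 of the 12 genes were higher.

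The neuronal lists rested on +PBS-2w replicate 1 for their size, as it had the lowest neuronal levels. With +MSC-2w replicate 1 set against +PBS-2w replicate 1, the median log2 difference of the synaptic vesicle genes was 1.64, and with +MSC-2w replicates 2 and 3 set against +PBS-2w replicate 2 it was 0.33. For the meninges these values were -2.02 and -3.29, for neutrophils -1.95 and -2.04, for collagens -1.30 and -1.34 and for phagocyte genes -1.21 and 0.04. Genes whose groups do not overlap must have the same sign in both settings. Most meningeal, neutrophil and collagen genes are of this kind, so their shared sign is no separate result. The sizes were alike in both for neutrophils and collagens, and the median of the phagocyte genes was near 0 in the second.

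**Figure D4:**
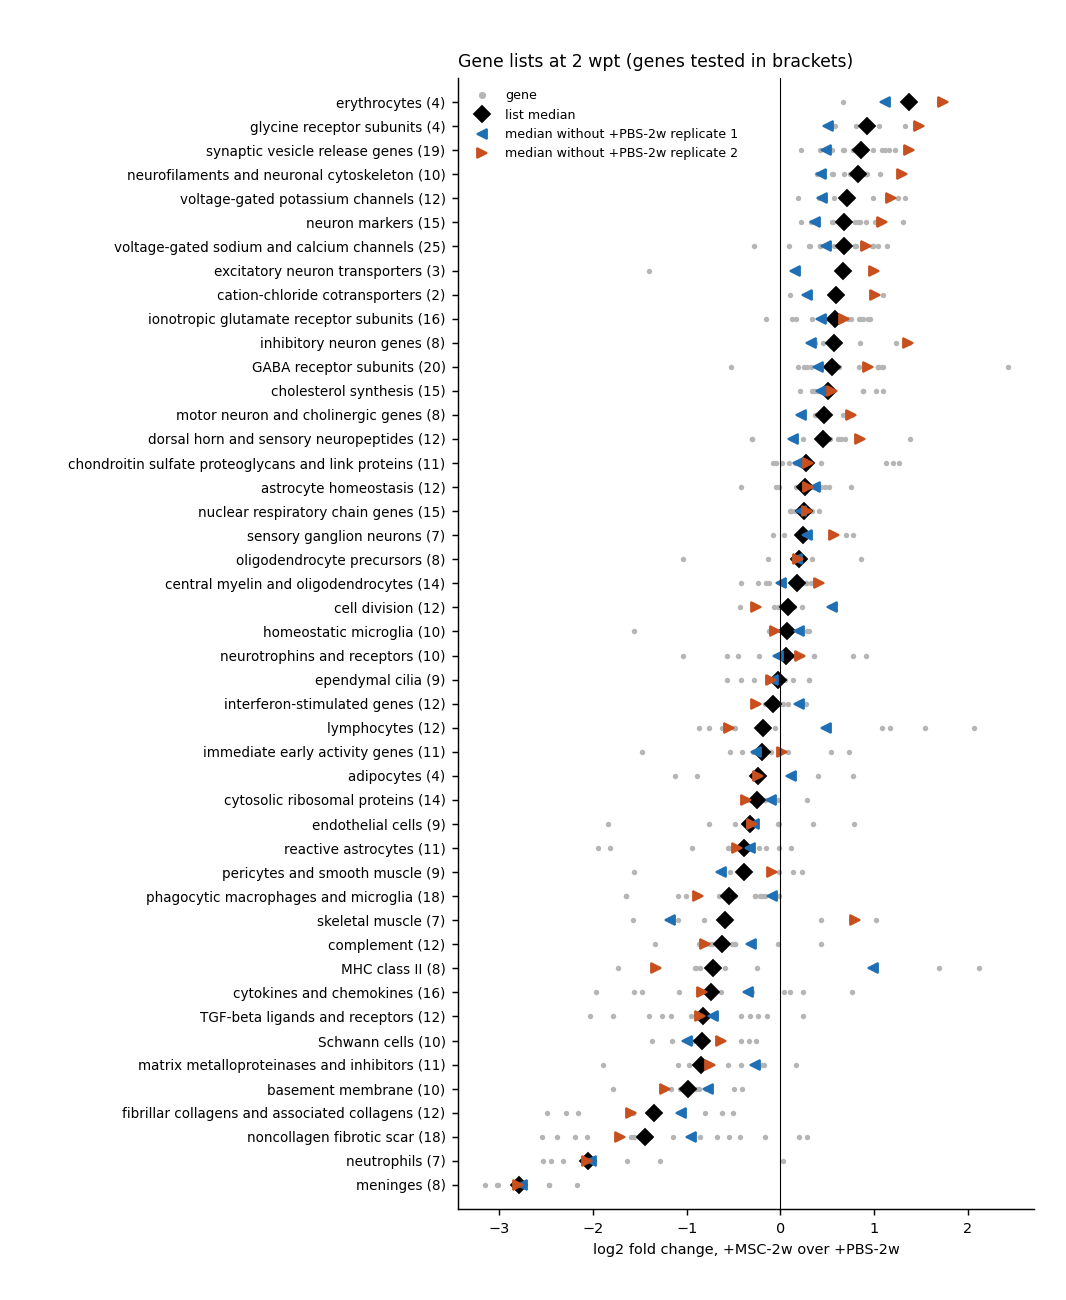
Log2 fold change of +MSC-2w over +PBS-2w (x axis) for every tested gene of 46 lists (gray), with the list median (black) and the median without +PBS-2w replicate 1 (blue) or replicate 2 (orange). The medians of the meninges, neutrophils and the scar lists stay well below 0 in all 3 settings, while those of class II histocompatibility genes (-0.73, 0.98 and -1.33), lymphocytes, cell division, skeletal muscle, interferon-stimulated genes, homeostatic microglia, immediate early genes, neurotrophins and adipocytes change sign.

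The lists of astrocyte homeostasis, central myelin and oligodendrocyte precursors had small positive medians of 0.26, 0.18 and 0.20. Those of reactive astrocytes and Schwann cells had negative medians, but the Schwann cell sum of +MSC-2w replicate 1 was not lower than in +PBS-2w. Gfap, the filament protein of astrocytes, overlapped at 9392, 15253 and 16154 CPM in +MSC-2w and 13626 and 11505 CPM in +PBS-2w. The other 10 of 11 genes of reactive astrocytes were lower, and 6 did not overlap. The intermediate filament gene Vim stood at 1078, 1305 and 1372 CPM in +MSC-2w and 2732 and 2087 CPM in +PBS-2w (-0.94 ± 0.38). The acute phase gene Lcn2 stood at 6.6, 16.3 and 16.2 CPM in +MSC-2w and 60 and 40.7 CPM in +PBS-2w (-1.95 ± 0.85). Steap4, a metalloreductase, stood at 10.9, 4.68 and 5.76 CPM in +MSC-2w and 27.5 and 22.9 CPM in +PBS-2w (-1.82 ± 0.59). Vim is also made by fibroblasts and vessels, and Lcn2 by neutrophils, so these are not specific to astrocytes. Astrocyte homeostasis genes had a median of 0.26 [0.20 to 0.38]. The glutamate transporter gene Slc1a2 stood at 163, 169.5 and 159.7 CPM in +MSC-2w and 103 and 92.1 CPM in +PBS-2w (0.75 ± 0.45). The water channel gene Aqp4 had a log2 fold change of 0.19 ± 0.29. Central myelin genes had a median of 0.18, which was 0.01 without +PBS-2w replicate 1, and the log2 fold change of Mbp was 0.34 ± 0.34. Pdgfra, a receptor of oligodendrocyte precursors and of fibroblasts, stood at 95.3, 82.9 and 89.5 CPM in +MSC-2w and 196 and 171 CPM in +PBS-2w (-1.04 ± 0.39). Enpp6, a gene of newly forming oligodendrocytes, stood at 52.8, 66.2 and 60.7 CPM in +MSC-2w and 29.5 and 36.5 CPM in +PBS-2w (0.86 ± 0.43). All 10 Schwann cell genes were lower by the fitted value, and 3 did not overlap. Their summed CPM was 1652, 416 and 416 in +MSC-2w and 1147 and 1590 in +PBS-2w, so that +MSC-2w replicate 1 was the highest library. With +MSC-2w replicate 1 set against +PBS-2w replicate 1, 7 of the 10 genes were higher, with a median log2 difference of 0.27. Scn7a, a sodium channel gene of nonmyelinating Schwann cells, stood at 42.9, 18.1 and 18.8 CPM in +MSC-2w and 73.9 and 64.1 CPM in +PBS-2w. The list median of -0.84 became -1.70 without +MSC-2w replicate 1 and -0.50 and -0.52 without replicates 2 and 3.

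Chondroitin sulfate proteoglycans and link proteins, form both the glial scar matrix and perineuronal nets. Next to Acan, the link protein genes of perineuronal nets were higher. Hapln4 stood at 232, 153 and 179 CPM in +MSC-2w and 48.2 and 108 CPM in +PBS-2w (1.27 ± 0.60). Hapln1 stood at 15, 9.32 and 8.07 CPM in +MSC-2w and 2.4 and 7.47 CPM in +PBS-2w (1.13 ± 0.64). The list had a median of 0.27 [0.17 to 0.36], with 4 of 11 genes wholly above and 0 wholly below. In endothelium, the junction gene Cdh5 was lower at 37.5, 17.2 and 18.2 CPM in +MSC-2w and 88.5 and 86.1 CPM in +PBS-2w (-1.84 ± 0.52). The barrier lipid transporter gene Mfsd2a was higher at 30.3, 37.5 and 41.5 CPM in +MSC-2w and 16 and 26.3 CPM in +PBS-2w (0.78 ± 0.43). The median of this list was -0.32 [-0.45 to -0.19].

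Enzymes of cholesterol synthesis, which oligodendrocytes need for myelin and neurons for membranes, were higher in +MSC-2w. All 15 were higher, 12 did not overlap and 9 had an unadjusted p under 0.05 (background 5.49%). The median log2 fold change was 0.51, with 0.43 and 0.55 without +PBS-2w replicates 1 and 2. At the entry of the pathway, Hmgcs1 stood at 226, 149 and 159 CPM in +MSC-2w and 82.2 and 111 CPM in +PBS-2w (0.88 ± 0.32). Squalene synthase, Fdft1, stood at 94.8, 62.3 and 64.8 CPM in +MSC-2w and 37.3 and 43.1 CPM in +PBS-2w (0.88 ± 0.23, edgeR adjusted p = 0.172), and the log2 fold change of the next enzyme gene, Sqle, was 0.42 ± 0.20. Dhcr7, which makes cholesterol from its last precursor, overlapped, with +MSC-2w replicate 1 low, at 29.3, 87.7 and 93.2 CPM in +MSC-2w and 40.3 and 25.4 CPM in +PBS-2w. The +MSC-2w libraries were well below Intact, where Fdft1 averaged 238 CPM and Hmgcs1 905 CPM. Respiratory chain genes were higher by less (median 0.25 [0.07 to 0.30], 15 of 15 higher), with Ndufs1 at 0.33 ± 0.16 and Uqcrc2 at 0.31 ± 0.11. Most of this lay in +MSC-2w replicate 1, without which the median was 0.07, with a summed CPM of 3883 in that library, 2990.3 and 2947 in the other +MSC-2w libraries and 2774 and 2893 in +PBS-2w. Ribosomal protein genes were slightly lower (median -0.25 [-0.37 to -0.10], nearest 0 without +PBS-2w replicate 1), with Rpl19 at -0.37 ± 0.15.

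Lists near 0 were those of cell division (median 0.08 [-0.26 to 0.55]), ependymal cilia (-0.03 [-0.11 to 0.00]) and neurotrophins and their receptors (0.06 [-0.02 to 0.21]). That of oligodendrocyte precursors was slightly higher (0.20 [0.07 to 0.24]). Immediate early activity genes had a median of -0.20 [-0.40 to 0.02], and the injury-induced factor gene Atf3 stood at 18.2, 29.1 and 32.4 CPM in +MSC-2w and 45 and 32.3 CPM in +PBS-2w. Skeletal muscle genes, which mark tissue around the cord, overlapped for 5 of 7 genes, with a summed CPM of 22.4 to 44.4 in +MSC-2w and 24.3 to 71.9 in +PBS-2w. Sensory ganglion genes had a median of 0.24 [0.29 to 0.57], adipocyte genes -0.25 [-0.44 to 0.11], lymphocyte genes -0.18 [-0.55 to 0.48] and pericyte and smooth muscle genes -0.39 [-0.63 to -0.09].

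The week 2 difference was then compared with the differences of +MSC from +PBS at 1 and 4 wpt, which rest on other libraries. The test of the difference between weeks called 0 of 17990 genes (0%) at an adjusted p under 0.05 against week 1 and 0 of 17990 (0%) against week 4. At an unadjusted p under 0.05 these numbered 480 (2.67%) and 413 (2.3%) genes. DESeq2 called 1 and 0 genes on all libraries and 15 and 2 on the groups compared. Across genes, which are not independent replicates, the log2 fold changes of week 2 correlated with those of week 1 (Pearson's r = 0.447) and of week 4 (r = 0.443) over 17990 genes. These values are descriptive, as the weeks share no library but share 1 fit and 1 scaling. Scar and neuronal lists had medians of the same sign at all 3 weeks. The collagens stood at -0.90, -1.35 and -1.11 at 1, 2 and 4 wpt, and the synaptic vesicle genes at 1.00, 0.85 and 0.98. The meninges list stood at -0.75, -2.79 and -1.25. Neutrophil genes had medians of opposite sign, 0.79 at 1 wpt and 0.82 at 4 wpt against -2.05 at 2 wpt. Their summed CPM overlapped between the groups at both other weeks. It was 107 to 251 in +MSC-1w and 116 to 202 in +PBS-1w, and 89.5 to 345 in +MSC-4w and 45.5 to 339 in +PBS-4w. Cholesterol synthesis stood at 0.40, 0.51 and -0.02, and cell division at -0.90, 0.08 and 0.00. These list medians were not tested between weeks.

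Single genes with the smallest p for a difference between weeks did not pass the adjustment either (edgeR adjusted p of 1.0 for each, rounded). Against week 4 they were the neuropeptide genes Crh and Vip and the granule gene Pglyrp1, a peptidoglycan recognition protein of neutrophils. Crh, corticotropin-releasing hormone, stood at 1.25, 0.451 and 0.976 CPM in +MSC-2w and 5.41 and 5.03 CPM in +PBS-2w at 2 wpt (-2.54 ± 0.62), while its log2 fold changes at 1 and 4 wpt were 0.36 and 1.08. Pglyrp1 stood at 1.38, 1.52 and 1.7 CPM in +MSC-2w and 5.54 and 5.31 CPM in +PBS-2w (-1.82 ± 0.46), with 0.24 and 0.57 at the other weeks. Vip, the vasoactive intestinal peptide gene, had -1.04 ± 0.45 against 1.41 at 4 wpt. Against week 1 they were RT1-M2, a class I histocompatibility gene of a family with close paralogs, the hydroxylase gene Asph (-0.30 at 2 wpt and 0.49 at 1 wpt) and the urotensin 2 gene Uts2 (-0.75 and 1.96). RT1-M2 stood at 2.21, 1.56 and 1.18 CPM in +MSC-2w and 0.032 and 0.187 CPM in +PBS-2w, a log2 fold change of 3.85 ± 1.44, and had -4.01 at 1 wpt. Its +PBS-2w levels rest on fewer than 10 reads in each library.

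**Figure D5:**
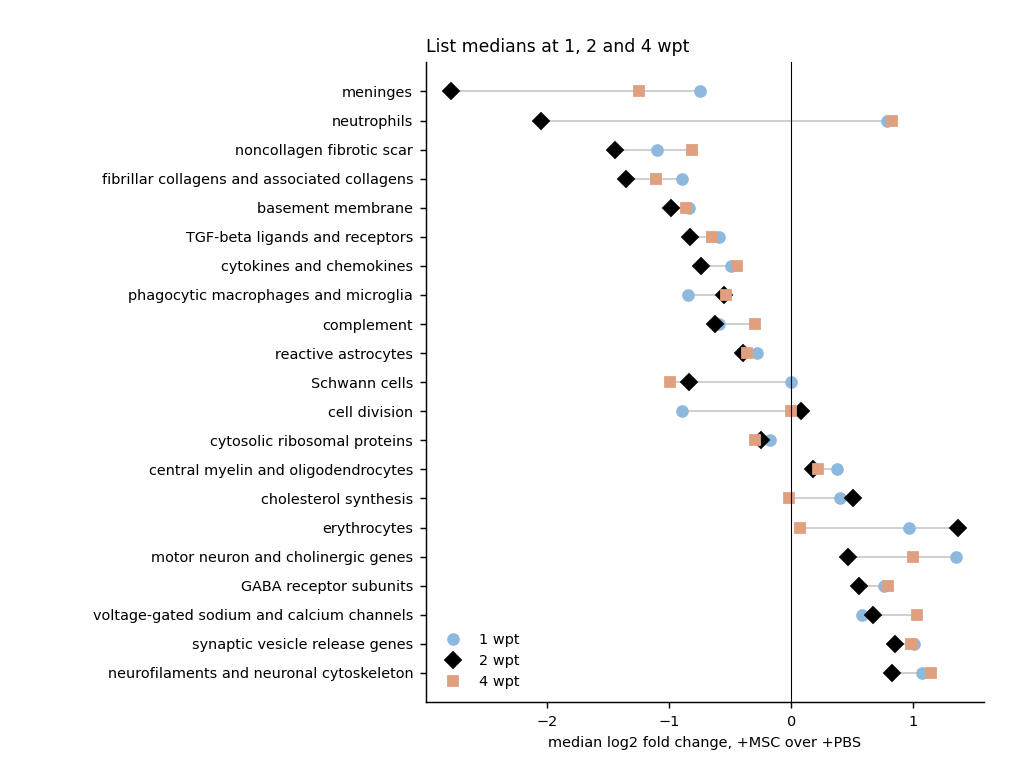
Median log2 fold change of +MSC over +PBS (x axis) for 21 gene lists at 1 wpt (3 against 3 libraries), 2 wpt (3 against 2) and 4 wpt (4 against 4), without error bars because the lists were not tested. The lists plotted have the same sign at the 3 weeks apart from Schwann cells, cell division, cholesterol synthesis and neutrophils, of which the last is below 0 at 2 wpt (-2.05) and above 0 at 1 and 4 wpt.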

How the data were processed

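Poly(A) RNA of 5 mm spinal cord segments was sequenced from paired ends. Per the methods and the submitters' processing notes, the authors trimmed reads with Trim Galore 0.5.0, removed reads that matched the human genome (GRCh38), aligned what was left with HISAT2 2.1.0 to Rnor6, a rat assembly, and made gene-level counts with featureCounts 1.6.4 after handling alignments in SAMtools 1.9. Rat reads alike to human sequence may thus be missing from the counts. The annotation release and strand setting are not given in the sources used here, so overlapping genes, antisense genes and close paralogs are uncertain. The deposited table holds raw counts of 32883 genes in 26 libraries, equal to each library's own deposited counts. Groups and replicate numbers came from the labels. The methods state another number of repeats for +MSC-2w than the labels, which were followed.

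All 26 libraries in 8 groups were fitted with edgeR 4.0.16 (R 4.3.3, limma 3.58.1), using its expression filter (filterByExpr), TMM scaling and the quasi-likelihood F test, with Benjamini-Hochberg adjustment over the 17990 genes tested. The standard error (SE) is the absolute log2 fold change divided by the square root of F. CPM used TMM-scaled totals, and log2 CPM a prior count of 2. Genes that do not overlap have all CPM of a group above, or below, all CPM of the other. DESeq2 1.42.0 was the alternative test, on all libraries and on the groups compared. Scripts were tested on simulated data. Total counts ranged from 19662677 to 31459506 in the 5 libraries. With 3 and 2 libraries a group, an exact permutation test of a single gene cannot reach an unadjusted p under 0.05, so no such test is reported.

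The comparison, the 46 gene lists (505 of 535 genes tested) and the tests were chosen with earlier results of these data known. Genes outside the lists were named by rule: the 12 with the smallest p in each direction among those with a gene symbol, a mean CPM of at least 1, an absolute log2 fold change above 1 and groups that did not overlap, and the 3 with the smallest p for each difference between weeks. Within lists, genes were chosen for their role or the size of their difference after their values were seen. Alternatives were other size factors, other filters on low counts, fewer groups in the fit, DESeq2, the replicate number as a block, a term for replicate 1 and leaving out each library. Some members of the lists are counted but their values are not reported here.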

Additional observations from a re-analysis of the deposited data

How the results depend on the processing

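edgeR called 0 DEGs with median-of-ratios size factors, with no filter on low counts, with at least 10 counts in every library, on the 2 groups alone, with a term for replicate 1 and without any 1 library. DESeq2 called 25 on all libraries and 420 on the groups compared. For the difference from week 1, DESeq2 called 1 gene on all libraries and 15 on the groups compared, and for the difference from week 4 it called 2 on the groups compared, where edgeR called 0 in every setting. Genes higher at an unadjusted p under 0.05 numbered 1554 in edgeR on the groups compared and 1676 in DESeq2 on the groups compared. Without each library in turn they ranged from 231 (without +PBS-2w replicate 1) to 1349, with 619 without +MSC-2w replicate 1, and the lower genes ranged from 449 (without +PBS-2w replicate 1) to 1229. With both libraries numbered replicate 1 left out, an alternative chosen after seeing the data, 264 were higher and 509 lower. Genes wholly above ranged from 4171 to 5825 and genes wholly below from 4046 to 6073 without each library, since fewer libraries overlap less, and both were highest without +PBS-2w replicate 2.

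Whether the replicate numbers pair the libraries could not be decided. Deviations of same-numbered libraries from their group means correlated at -0.078 and -0.055. With 2 +PBS-2w libraries these deviations mirror each other, so the 2 values are not separate and cannot exclude a pairing. With the replicate block, edgeR called 0 DEGs, 1535 genes were higher and 1669 lower at an unadjusted p under 0.05, and the log2 fold change of Csf3r was -0.049.

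For 6 of the named genes the fitted direction depended on the setting, and all 6 overlapped between the groups. Csf3r had -0.089 with a term for replicate 1. Without each library in turn, Csf3r ranged from -0.13 to 0.21, Gfap from -0.028 to 0.32, Lgals3 from -0.36 to 0.46 and Cd74 from -1.49 to 0.29, the last highest without +PBS-2w replicate 1. With both replicate 1 libraries left out, Lgals3 had 0.78, Cd74 0.18, Cd68 0.26 and Gad1 -0.067. The cause was not tested in any of these. Genes under 1 CPM rest on few reads, and the sizes of neuronal, phagocyte, complement, cytokine, metalloproteinase and histocompatibility differences on 1 vehicle library, +PBS-2w replicate 1.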
